A study of Mus musculus with 14 samples.

Results

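The stretch of mouse chromosome 1 that runs from Usf1 through Itln1 and Cd244a to Ncstn and Copa held 17 of the 6758 regions listed in the comparison of NKX2.2 binding between Klf4-knockdown and control alpha cells. The binding assay was ChIP-seq, in which chromatin is precipitated with an antibody, here against NKX2.2, and the recovered DNA is sequenced. The cells were alphaTC6, an alpha-cell line from mouse that makes glucagon and is labelled as wild type. All groups carried the same genotype and had been reverse-transfected for 48 h, with an siRNA (a short RNA that silences a transcript) against Klf4 in 3 NKX2.2 ChIP samples and 3 input samples, and with a scrambled siRNA in 4 and 4. Only the authors' deposited table of the ChIP comparison was analysed here, so each value below is a property of the whole comparison and none belongs to a single culture. The alphaTC lines descend from tumours of mice in which the glucagon promoter drove a viral oncogene, so they model proliferating alpha cells rather than islet tissue.

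The 17 regions were chosen by their position on chromosome 1, from 171410951 to 172082810, and these bounds had been set because every listed log2 fold change between them is negative. Their sign is therefore a property of the choice and is given as a description. Directions are printed as listed, since the table does not name the numerator of the fold change: down stands for a negative value and up for a positive value, and neither is translated into loss or gain upon knockdown. At the lower edge the first region inside had a listed log2 fold change of -0.52, and the nearest region outside, at Klhdc9, had 0.30. At the upper edge the last region inside had -0.15 and the nearest outside, in Atp1a4, had 0.90.

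NKX2.2 is a homeodomain transcription factor that shapes the endocrine cell types of the pancreas and recognises DNA with the core AAGTG. KLF4 is a zinc-finger factor of the Krüppel-like family that binds GC-rich elements. Itln1 encodes intelectin-1, a secreted lectin that binds sugars on microbial surfaces and is best known from intestinal goblet and Paneth cells. Cd244a encodes CD244 (2B4), a receptor of the SLAM family on natural killer and other immune cells whose ligand is CD48. The number of intelectin genes and the make-up of the SLAM gene cluster are known to differ between inbred mouse strains. In the RefSeq gene table, the symbols Itln2, Itln3 and Itln5 are carried as synonyms of the single gene Itln1, and Itlnb is not analysed here. All samples here come from the same cell line, so no strains were compared. A fold change between ChIP samples does not separate a difference between cultures in DNA copy number from one in binding. These cannot be told apart in the values that follow, and copy number was not tested.

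In 4 of the 17 regions the listed interval overlaps a promoter for which RefSeq sequence was at hand, and these are shown because they give the DNA under the strongest single region and under regions at 3 gene starts of the locus. Each is the 300 bases from 250 before to 50 after a gene start, 5′ to 3′ on the strand of the gene, build GRCm38.p6. Capitals mark the bases inside the listed region. They lie at chr1:171562024-171562323 on the minus strand (Gm35200, a long noncoding RNA gene in antisense orientation to Cd244a), chr1:171411063-171411362 on the plus strand (Usf1), chr1:171503228-171503527 on the plus strand (Alyref2) and chr1:172082700-172082999 on the minus strand (Ncstn).
Gm35200: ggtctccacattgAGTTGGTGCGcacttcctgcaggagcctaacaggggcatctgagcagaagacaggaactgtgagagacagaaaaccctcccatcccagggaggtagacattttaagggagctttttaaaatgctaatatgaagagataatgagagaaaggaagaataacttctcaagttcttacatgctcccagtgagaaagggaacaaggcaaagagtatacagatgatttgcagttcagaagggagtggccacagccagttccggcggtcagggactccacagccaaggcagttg
Usf1: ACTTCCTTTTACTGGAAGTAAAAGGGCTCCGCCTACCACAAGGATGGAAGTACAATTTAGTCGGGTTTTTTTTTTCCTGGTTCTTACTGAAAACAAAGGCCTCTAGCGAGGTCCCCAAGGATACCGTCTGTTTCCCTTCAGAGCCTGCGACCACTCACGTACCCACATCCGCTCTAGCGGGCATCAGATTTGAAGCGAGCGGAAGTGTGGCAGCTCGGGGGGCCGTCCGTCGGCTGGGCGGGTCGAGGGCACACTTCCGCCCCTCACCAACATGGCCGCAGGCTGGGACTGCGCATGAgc
Alyref2: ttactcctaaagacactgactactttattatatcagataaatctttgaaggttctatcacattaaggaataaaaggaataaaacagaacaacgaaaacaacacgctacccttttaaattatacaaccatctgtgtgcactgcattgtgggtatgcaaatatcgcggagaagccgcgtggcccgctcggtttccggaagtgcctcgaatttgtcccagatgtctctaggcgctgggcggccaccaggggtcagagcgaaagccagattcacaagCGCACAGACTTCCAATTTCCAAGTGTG
Ncstn: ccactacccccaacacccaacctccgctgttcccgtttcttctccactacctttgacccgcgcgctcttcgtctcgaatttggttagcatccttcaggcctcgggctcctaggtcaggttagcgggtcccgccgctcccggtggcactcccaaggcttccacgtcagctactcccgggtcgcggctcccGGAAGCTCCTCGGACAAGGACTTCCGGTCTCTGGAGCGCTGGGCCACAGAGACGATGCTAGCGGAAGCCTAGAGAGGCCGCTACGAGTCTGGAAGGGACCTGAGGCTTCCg

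The Gm35200 promoter carries the 10 bp window with the lowest fold change of the table, at bases 14 to 23 of the printed sequence, which is 228 to 237 bp upstream of the gene start. On the other strand AAGTG reads as CACTT, and it occupies bases 24 to 28, with 0 bases between it and the window. Within the Usf1 region AAGTG occurs at bases 203 to 207 and its complement at bases 252 to 256. In the Alyref2 promoter AAGTG occurs at bases 294 to 298, inside the region, and at bases 196 to 200, outside it. The Ncstn promoter holds no AAGTG on either strand. This core is short, and it is found on either strand in 46.3% of 32619 promoters of the same length and in 47.9% of the 1707 that a listed region overlaps.

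Other motifs searched on both strands were TNAAGTG, a longer NK2-type site that contains the core, and the Krüppel-like sites GGGNGNGG and GGGTGTGG, the latter a special case of the former. TNAAGTG and GGGTGTGG are absent from all 4 printed promoters, against 11.6% and 3.57% of all promoters that hold them. GGGNGNGG occurs outside the region in the Gm35200 promoter, at bases 247 to 254, and as its complement outside the region in the Ncstn promoter, at bases 132 to 139. It is present in 49.8% of all promoters and in 65.0% of those a listed region overlaps. The Itln1 promoter holds none of these motifs and overlaps no listed region.

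Binding regions from the 3′ end of Itln1 into Cd244a were the most closely packed of the comparison. From 171517801 to 171569210, a span of 51.4 kb, the authors' deposited table lists 13 regions, 1090 to 7290 bp apart. This count does not use any fold change, though the length of the span was set by this stretch itself. Over all 6725 starting points on chromosomes 1 to 19 and X, a span of the same length held a median of 1 region, and no other starting point reached 13. The next densest span held 7 regions, around Ica1 and Nxph1 on chromosome 6, where 1 of 7 log2 fold changes was negative and the median was 0.25. After it came spans of 6 regions, of which only the first 3 in chromosome order were looked at. They were at Ptma on chromosome 1 with 3 negative, at Atp1b1 on chromosome 1 with 4 negative, and from Flad1 to Pmvk on chromosome 3 with 1 negative.

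**Figure D1:**
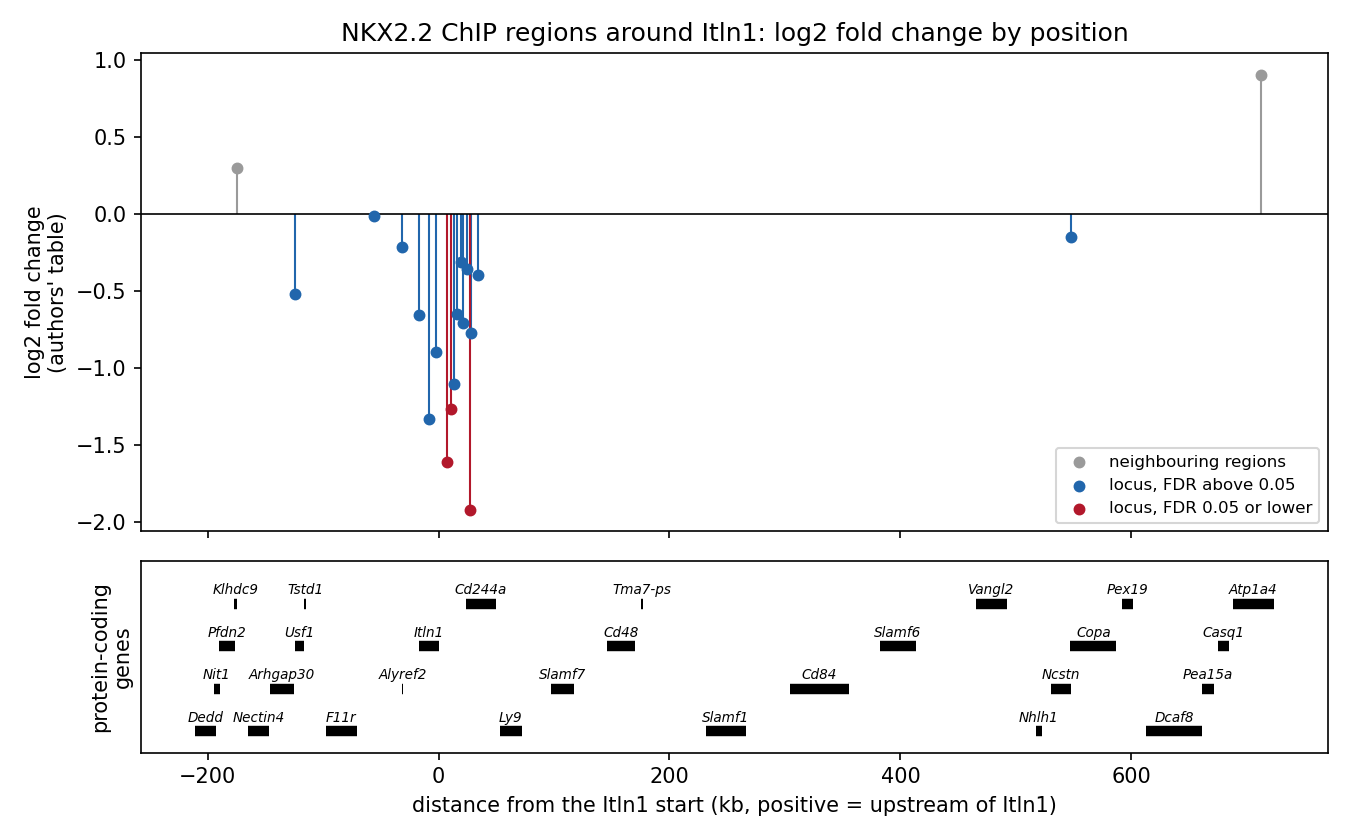
Listed log2 fold change (vertical axis, log2) of each region against its distance from the Itln1 start (horizontal axis, kb), with the bounds of protein-coding genes below; red marks an FDR of 0.05 or lower, blue the other regions of the locus and grey the nearest regions outside. The lowest values, down to -1.92, stand in the stretch from Itln1 into Cd244a, and no region is listed over the SLAM genes from Ly9 to Slamf6.

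In Itln1, which lies on the minus strand from 171518123 to 171535325, 3 regions were listed and none reached a false discovery rate (FDR) of 0.05. A 410 bp region at the 3′ end of the gene had a log2 fold change of -0.66 in the authors' deposited table (p = 0.077, FDR = 0.531). A 3460 bp region inside the gene, from 171525451 to 171528910 and 6.38 kb downstream of the gene start, had -1.34 in the authors' deposited table (p = 0.00128, FDR = 0.0722), with 6 of its 20 windows counted as down by the authors. A 260 bp region 2.28 kb downstream of the start had -0.90 in the authors' deposited table (p = 0.0109, FDR = 0.221). Windows are the short intervals in which csaw, the authors' program, counts reads before it joins neighbours into regions. The log2 fold change listed for a region is that of a single window chosen to represent it, and not a mean over its width.

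Upstream of Itln1, in the 23.4 kb before Cd244a that hold no other protein-coding gene, the listed values were lowest close to Itln1 and mostly less negative toward Cd244a. The first region, from 171540301 to 171544510, starts 5.01 kb upstream of the Itln1 start and contains the pseudogene Gm37450. The authors' deposited table gives it a log2 fold change of -1.61, a 3.06-fold difference, at p = 9.66e-06 and FDR = 0.00297, with 23 of 53 windows down. The second, from 171545951 to 171546060, had -1.27 in the authors' deposited table, at p = 0.000264 and FDR = 0.0297, with 3 of 3 windows down. For the next 4 regions the listed log2 fold changes were -1.10, -0.65, -0.31 and -0.71, and the smallest of their FDR values was 0.0938. The region at -1.10 had 14 of its 19 windows counted as down, a larger share than the wide region that passed the threshold.

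Within Cd244a, from 171558718 to 171585316 on the plus strand, 4 regions were listed that differed widely over a short distance. The single window at 171560351 had a log2 fold change of -0.36 in the authors' deposited table (p = 0.28). The single window at 171562301, which starts 1950 bp further on, had -1.92 in the authors' deposited table, a 3.79-fold difference, at p = 1.22e-07 and FDR = 0.000217. A 760 bp region from 171563401 had -0.77 in the authors' deposited table (p = 0.0371, FDR = 0.39) with 2 of 4 windows down, and a single window at 171569201 had -0.40 (p = 0.219). The deepest value thus stands in 1 window of 10 bp between neighbours that did not pass, and the difference between these neighbours was not tested, since the table holds no values per library. Over the other 802 single-window regions of the table, log2 fold changes ran from -1.17 to 1.43 around a median of 0.03. An FDR of 0.05 or lower was listed for 0.748% of them. The window at -1.92 belongs to a locus chosen by sign, so nothing is read from its place below this range.

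**Figure D2:**
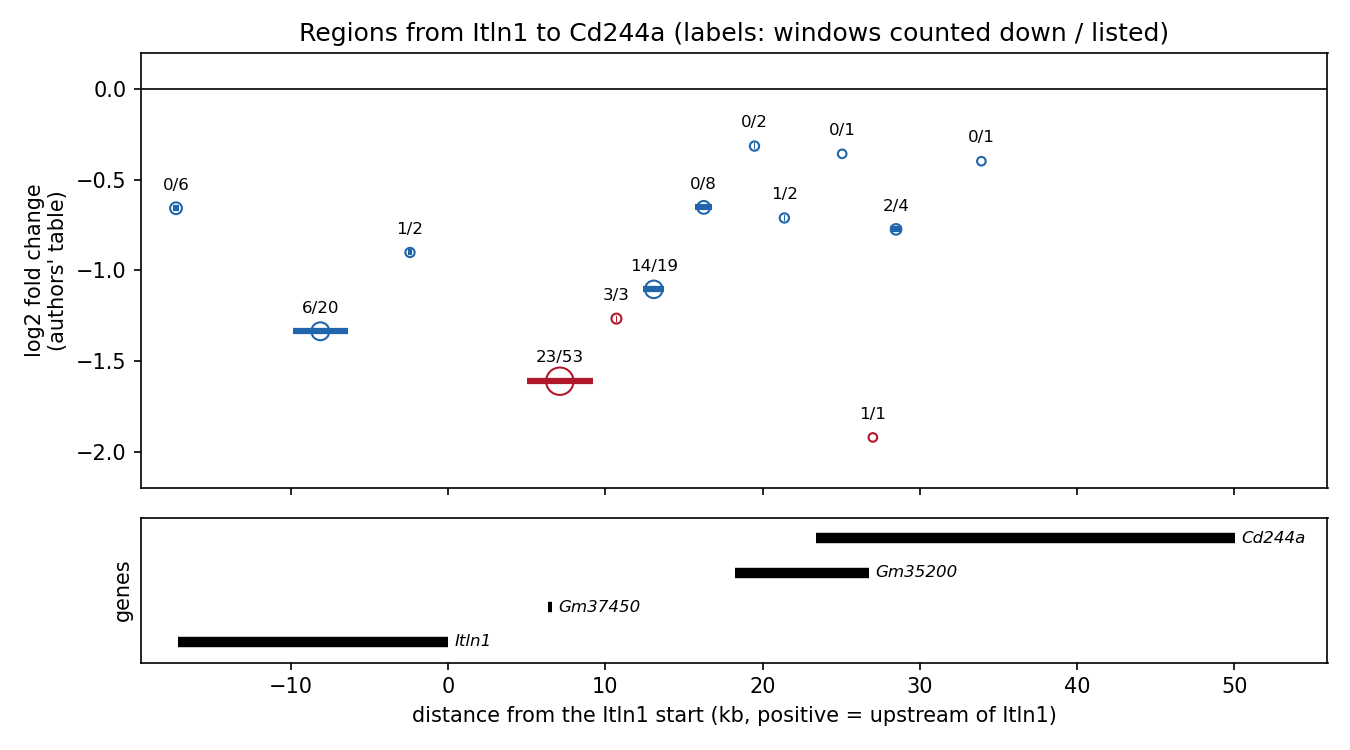
Log2 fold change in the authors' table (vertical axis) of the 13 closely packed regions against distance from the Itln1 start (kb), with horizontal bars for region widths, circle areas growing with the number of windows, and gene bounds below; red marks an FDR of 0.05 or lower. Labels give windows counted as down out of windows listed, and the deepest value, at 1 of 1 windows, lies next to weaker neighbours.

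The other 4 regions of the locus lay at or near housekeeping and adhesion genes, and none approached the threshold. At Usf1, which encodes a basic helix-loop-helix factor that binds E-box elements, a 410 bp region covering the gene start had -0.52 in the authors' deposited table (p = 0.196, FDR = 0.725). The region nearest to F11r, the gene of the tight-junction protein JAM-A, lies 14508 bp beyond the gene and had -0.01 in the authors' deposited table (p = 0.955), with its windows listed as mixed in direction. At Alyref2, a gene for an mRNA export adaptor, a 110 bp region starting 23 bp after the gene start had -0.22 in the authors' deposited table (p = 0.735). The last, at the shared start of Ncstn, which encodes the γ-secretase subunit nicastrin, and Copa, which encodes a subunit of the COPI vesicle coat, had -0.15 in the authors' deposited table (p = 0.632). In these 4 regions the authors counted 0 of 17 windows as down, and in the 13 packed regions 51 of 122, beside 7.66% of the windows of the whole table; since the regions were chosen by sign, nothing is read from this. Promoter regions elsewhere in the table give the scale: 1342 regions that overlap a promoter outside the locus had a median of -0.05, and 57.7% were negative.

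Counted over the whole locus, 3 of 17 regions had an FDR of 0.05 or lower, all listed as down, where the authors' deposited table has 1.36% of all regions at that level and 0.592% at that level with a negative value. Because the members were chosen by the sign of the same fold changes, nothing is read from this excess. The unadjusted p-value was under 0.05 in 8 of 17, beside 11.2% of all regions and 3.68% with a negative value. A log2 fold change of -1 or lower was listed for 5 of 17, against 0.518% of the table. Of the 20 lowest values in the table, 5 belong to the locus. The lowest outside the locus were regions narrower than 1 kb nearest to Vmn1r2 (-1.47) and Gm53057 (-1.46). Narrow regions nearest to Zfp282 (-1.26) and Fam171a1 (-1.24) were also among the 20. Others of these 20 were regions wider than 1 kb near Adam6a (-1.23), Sfi1 (-1.19) and Ccr1 (-1.15 and -1.11). Some of the 20 lay on sequences outside the numbered chromosomes and X, such as JH584304.1 (-1.15) and GL456370.1 (-1.10). Low values were thus not particular to this locus or to wide regions. All 17 were negative by choice, where 43.2% of all regions are. The median over the locus was -0.66, beside 0.04 over all regions and 0.03 over the other 729 regions of chromosome 1. Its nominal 95% interval from order statistics ran from -1.10 to -0.36. This interval is over neighbouring regions, which are not replicates and were chosen by sign. It could not reach positive values and only describes the spread of these regions.

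**Figure D3:**
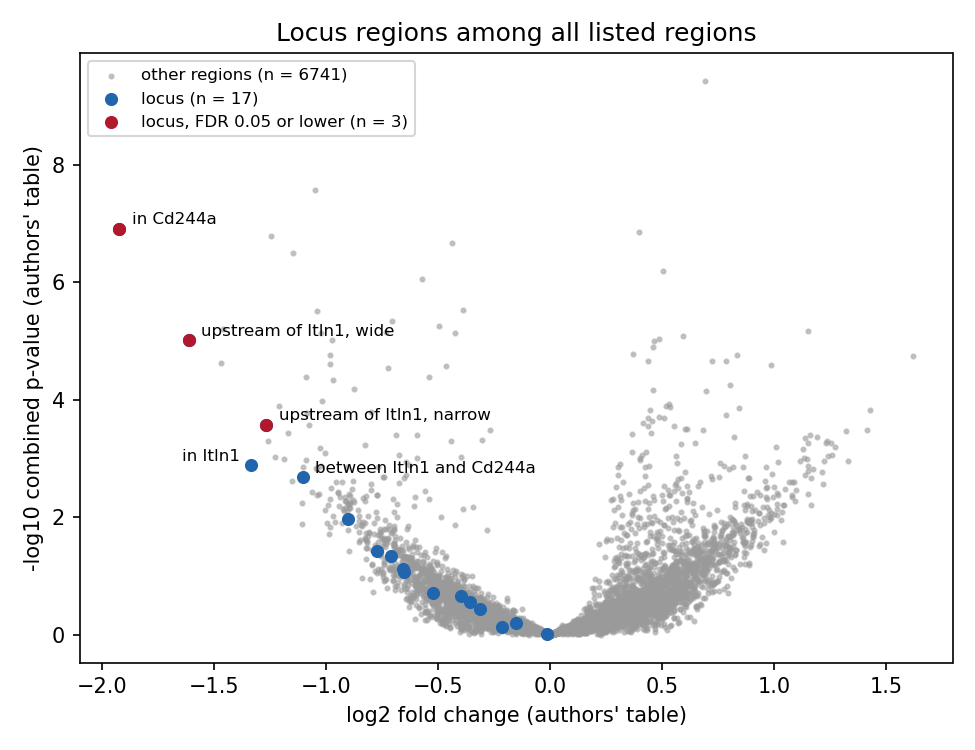
Minus log10 of the combined p-value (vertical axis) against log2 fold change (horizontal axis) for all regions of the authors' table, with the 17 regions of the locus in blue and the 3 at an FDR of 0.05 or lower in red. The labelled regions have values of -1.10 or lower, and the window in Cd244a, at -1.92, is the leftmost point of the table.

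With the authors' best-window FDR, 3 regions passed, beside 1.2% of the table, and they were the same 3; in each of them the combined and best-window p-values are the same number, so this column could hardly change the calls. At an FDR of 0.01 there were 2 (0.592% of the table), and at 0.1 there were 5 (2.31%), which adds the wide region in Itln1 and the region at -1.10 between the genes. An FDR of 0.05 combined with a log2 fold change of 1 or more in size kept 3 (0.488%). The combined and best-window p-values were identical in 8 of the 17 regions, these 3 included, and in 32.0% of the table. In the wide region upstream of Itln1 both columns name the same window, number 36 of its 53.

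Windows in the locus were listed in a broken pattern, a property the choice of members did not use. csaw windows here start on a 50 bp grid, and not every position of the grid is listed; the authors' rule for keeping a window is not given in the sources used here. In 8 of the 17 regions the grid was incomplete, meaning that windows between the first and the last were missing, compared with 6.24% of all regions and 7.41% of the other regions of chromosome 1. In 4 of the 17 fewer than 50% of the possible windows were listed, compared with 2.4% of all regions. The region inside Itln1 listed 20 of 70 possible windows, or 28.6%, and the wide region upstream listed 53 of 85, or 62.4%. The 760 bp region in Cd244a listed 4 of 16. A region of 1 window cannot have an incomplete grid, whereas the regions wider than 1 kb, 4 of the 17, all had one. These shares were not matched for region width. The other 414 regions of the table with an incomplete grid had a median log2 fold change of -0.03 and a lowest value of -1.26, and 56.0% were negative.

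**Figure D4:**
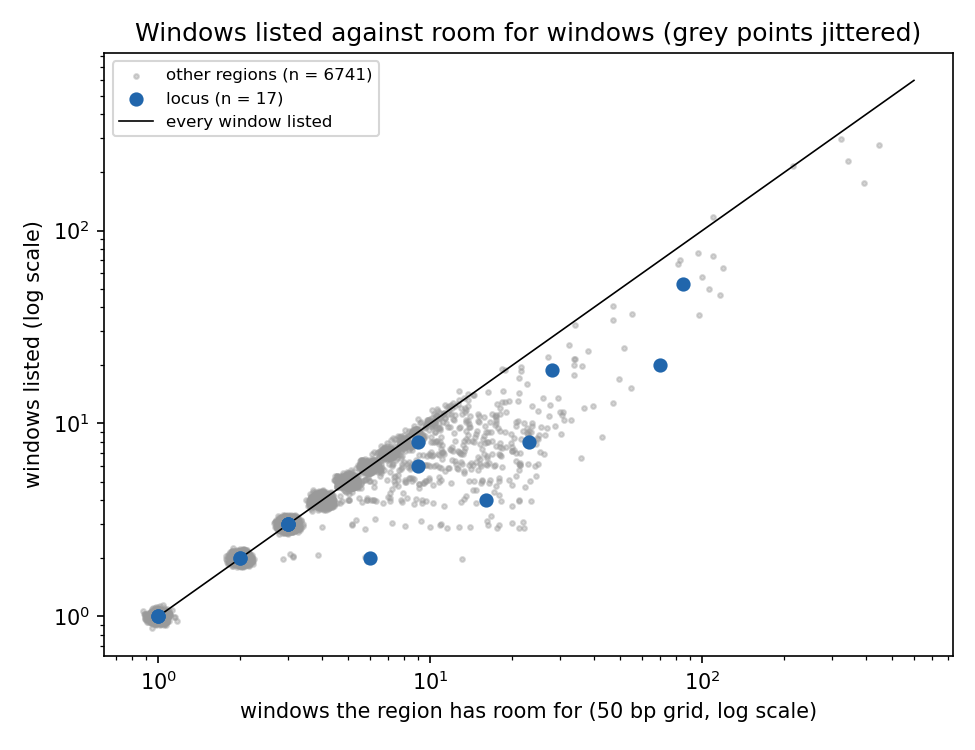
Windows listed (vertical axis, log scale) against windows the region has room for on the 50 bp grid (horizontal axis, log scale) for all regions, with the 17 of the locus in blue; grey points were jittered and the line marks a complete grid. Of the 17 regions, 8 fall below the line.

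Wide regions were also frequent in the locus. Of the 17 regions, 4 were wider than 1 kb, or 23.5%, while 1.52% of the table and 1.92% of the rest of chromosome 1 were. The listed log2 fold changes of these 4 were -1.34, -1.61, -1.10 and -0.65. The other 99 wide regions of the table had a median of -0.10, 58.6% of them were negative, and 17.2% had an FDR of 0.05 or lower. Their lowest value was -1.23. Of the 4 wide regions of the locus, 2 were listed below that, the one inside Itln1 and the one upstream of it. The locus was chosen by the sign of these fold changes, so nothing is read from this order.

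Beyond Cd244a the listing stopped. The next region stood 513490 bp further on, and 18.0% of all gaps between neighbouring regions on chromosomes 1 to 19 and X were at least as long. The gap contains the whole of 9 annotated protein-coding genes, among them the SLAM family members Ly9, Slamf7, Cd48, Slamf1, Cd84 and Slamf6. Of the 9 SLAM genes examined, only Cd244a was nearest to any listed region, with 8 regions. That a gene has no listed region says that no window near it was kept by the authors, at an unknown depth, and not that NKX2.2 was absent.

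The regions on either side were of both signs. Of the 10 regions before the locus, 7 were positive, and their log2 fold changes ran from -0.20 to 0.40 in the authors' deposited table, with a smallest FDR of 0.417. Of the 10 after it, 5 were positive, with values from -0.70 to 0.90 and a smallest FDR of 0.135. Among 17 neighbouring genes of general function, 7 were nearest to a region, and of the 6 regions involved only that at Ncstn and Copa was negative. That region is a member of the locus, and so negative by choice. The region at Klhdc9 borders the run of negative regions, and so could not be negative. The negative regions before the locus, nearest to Cfap126 and Adamts4, are not on this gene list. Nothing is therefore read from these signs. The related genes Usf3, Usf2, Alyref, Jam2, Jam3 and Nectin4 had in all 1 region, at Usf3, with a log2 fold change of 0.09.

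The 5 other longest runs of neighbouring regions with the same sign were all positive and covered longer spans. The longest in the authors' deposited table, 18 positive regions on X, spanned 31.7 Mb with a median gap of 331740 bp, its log2 fold changes had a median of 0.32, and 0 of its regions had an FDR of 0.05 or lower. The next after the locus were 15 positive regions from Btbd9 to Angptl4 on chromosome 17, with a median of 0.29 over 3.29 Mb. They were followed by 3 runs of 14 positive regions each: from Kctd3 to Rps6kc1 on chromosome 1 (median 0.11 over 1.83 Mb), from Gas2 to Klf13 on chromosome 7 (0.22 over 12.0 Mb) and from Pja1 to Pcdh19 on X (0.26 over 34.1 Mb). In these 4 runs 0 regions were at that FDR. The 17 regions of the locus spanned 0.672 Mb with a median gap of 3740 bp.

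Cell identity could not be checked by expression in a binding table. As a description of place, 7 alpha-cell marker genes were nearest to at least 1 listed region, 18 regions in all, and the authors' deposited table gives these a median of 0.05 and a smallest FDR of 0.311. Regions lay nearest to 3 of 6 beta-cell genes, 1 of 2 delta-cell genes and 2 of 6 lymphocyte genes, and 0 of these had an FDR of 0.05 or lower. Nearest does not mean close. The distances were 180 bp for Mafa, 5687 bp for Pdx1, 226674 bp for Nkx6-1 and 17070 bp for Hhex. They were 371349 bp for Ptprc and 3510 bp for the closest region of Klrb1c. The share of all genes that were nearest to a region was not counted, so nothing is read from these marker counts. The lymphocyte genes Cd48 and Ly9, which neighbour Cd244a, had no region.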

How the data were processed

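Per the submitters' processing notes, FastQC, Bowtie2 and MACS2 were used with build mm10, and per the series' design text csaw made the differential binding comparison. The window filter, normalization, covariates and any use of the input samples are not given in the sources used here. The deposited table gives, per the file headers, a p-value and FDR and a log2 fold change for each region, with window numbers as other values. The log2 fold change is that of the region's representative window. Each p-value was deposited by the authors and no test was run on samples. The FDR equals a Benjamini-Hochberg adjustment over all regions, with a largest difference of 1.3e-14. No depth per sample is known.

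Members and gene lists were chosen with earlier results of these data known. Every region of the locus is named. Genes, all 5 named ones with promoter sequence, came from RefSeq GRCm38.p6, the assembly that mm10 represents; the nearest of 21900 protein-coding genes was taken by distance between edges. Possible windows were counted on the 50 bp grid from region width and the window width of 10 bp. Functions were tested on simulated data. Python 3.11.15, numpy 2.4.6 and pandas 2.3.3 were used. Alternatives covered thresholds, bounds, window choice and filters. Read counts of single libraries are no part of the table, so the planned count test was left out.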

Additional observations from a re-analysis of the deposited data

How the results depend on the processing

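The 3 regions at an FDR of 0.05 became 5 at an FDR of 0.1, and 2 at an FDR of 0.01, which the narrow region upstream of Itln1 missed. It was 2 without single-window regions and 2 without regions over 1 kb wide, since each filter removed a called region, and 3 under the other alternatives. None of the 44 recomputed FDR values and 17 deposited best-window FDR values of single regions changed its side of 0.05. The median log2 fold change of -0.66 was -1.34 when each region's listed value was repeated by its number of windows, since the 2 widest regions hold 73 of 139 windows. That is no median over single windows, because each listed value comes from the region's representative window. Under the other alternatives the median ran from -0.52 (regions up to 1 kb wide) to -0.77 (the 13 packed regions, an alternative chosen after seeing the data). Best windows were negative in 17 of 17, and the direction column listed 16 as down. In several regions the best window is the representative window by whose sign the members were chosen, so these counts could hardly differ. Bounds 100 kb wider took in 1 more region, a positive one. The run of negative regions ends at the bounds of the locus, so the next region on either side could not be negative. With all genes in place of protein-coding genes, Itln1 or Cd244a was nearest to 7 regions in place of 13, and Gm35200 to 5. No paired analysis was possible because no column of the comparison belongs to a sample. Leaving out a replicate was likewise not possible. Depth is unknown, so a region without a call may differ below detection.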
